A study of Drosophila melanogaster with 8 samples.

Results

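The genes described here encode the nuclear subunits of oxidative phosphorylation (OXPHOS) in Drosophila melanogaster. They were taken by name: every gene in both count tables whose symbol begins with ND-, SdhA to SdhD, UQCR-, COX and a digit, or ATPsyn. The rule found 80 of 14094 genes. Of these, 40 belong to complex I, 6 to complex II, 8 to complex III, 11 to complex IV and 15 to complex V. By their symbols, 62 are main copies and 18 are paralogs marked by an added L. In 14 of these the symbol is the main copy's with an L at its end; the others are ND-51L1 and ND-51L2, COX6AL (main copy levy) and ATPsynepsilonL (main copy sun). RNA was sequenced from adult ovaries dissected 1 to 3 days after eclosion, in 4 groups of 2 libraries. The nosGAL4 libraries labelled as stwl knockdown came from flies of genotype nosGAL4;stwl RNAi/TM6, and their controls from nosGAL4;MKRS/TM6. The bamGAL4 libraries with that label came from bamGAL4>stwl RNAi/TM6, and their controls from bamGAL4 with no balancer listed. With each driver, the libraries labelled knockdown and their controls differ in the listed balancers as well as in the hairpin. The effects of hairpin and balancers cannot be told apart in any comparison below. In the text, "libraries labelled knockdown" are those carrying the stwl hairpin, and stwl encodes the chromatin protein Stonewall. Both drivers express GAL4 in the germline, from the nanos promoter and from the bam promoter, while the RNA came from whole ovaries with their somatic cells. In such bulk samples, fewer cells of a type and less RNA per cell cannot be told apart.

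Oxidative phosphorylation is the inner mitochondrial membrane pathway that turns the electrons of NADH and succinate into ATP. Complex I takes electrons from NADH and complex II from succinate. Both hand them to coenzyme Q, complex III passes them on to cytochrome c, and complex IV gives them to oxygen. The proton gradient built by complexes I, III and IV drives complex V, the ATP synthase. Complex II, succinate dehydrogenase, pumps no protons, is also an enzyme of the citrate cycle, and is the member of the 5 complexes with no subunit encoded in mitochondrial DNA. In the Drosophila ovary, germ cells multiply their mitochondria and pass them to the egg, and many copies of mitochondrial genes with an added L are known for expression in the testis.

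Total counts per library ran from 7473859 to 12174983, and 0.837% to 1.27% of them fell on the OXPHOS genes. The labels do not say whether the libraries of a group came from separate flies, so p-values measure the spread between these libraries. Their log2 levels correlated across genes at 0.925 for the nosGAL4 libraries labelled knockdown and at 0.97 to 0.984 for the other groups. Levels are given as CPM, counts scaled to a common library size with TMM factors. The hairpin's target was not lower: stwl was at 61.1 and 27.7 CPM in the nosGAL4 libraries labelled knockdown, against 23.1 and 16.9 CPM for their controls (log2 fold change 1.15, SE 0.37, edgeR adjusted p = 0.0203). For bamGAL4 the values were 23.2 and 29.6 CPM, against 18.2 and 21.0 CPM for controls (0.43, SE 0.36, adjusted p = 0.313). Counts per gene cannot separate reads of the hairpin from those of the mRNA, so stwl does not check the labels. Markers of several cell types differed widely between libraries labelled knockdown and controls. Summed over 10 germline markers, levels were 622 and 280 CPM in nosGAL4 libraries labelled knockdown and 169 and 241 CPM in those of bamGAL4. With nosGAL4 8 of the 10 fell and 1 (bgcn) rose, and with bamGAL4 8 fell and 0 rose. In the controls the sums were 3045 and 3121 CPM with nosGAL4 and 2457 and 2412 CPM with bamGAL4. All 12 muscle markers rose with both drivers, and their sum lay between 38782 and 54077 CPM over the 4 libraries labelled knockdown, against 356 to 538 CPM over the 4 controls. All 10 haemocyte and fat body markers rose with both drivers as well, and their sum was 9334 to 19861 CPM over the libraries labelled knockdown, against 284 to 529 CPM over the controls. Of 5 neuronal markers tested, 4 rose with each driver, with sums of 180 to 323 CPM against 2.06 to 7.19 CPM. Of 6 oviduct, spermatheca and gut markers tested, 2 rose with nosGAL4 and 1 with bamGAL4, and their sums overlapped between labels. Over all 8957 genes tested, 59.2% passed the test with nosGAL4 and 68.1% with bamGAL4 (edgeR's quasi-likelihood test, Benjamini-Hochberg adjusted p below 0.05). A count of members that passed is therefore read against these shares throughout.

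OXPHOS transcripts were of unequal level in the control ovaries. Levels between genes are compared here as CPM per kilobase of the longest transcript, averaged over the 4 control libraries. ATPsynC, which encodes the rotating membrane ring of the ATP synthase, had the highest level at 1019 CPM per kb. It was followed by the catalytic subunit ATPsynbeta at 657, the cytochrome c oxidase subunit COX5A at 435 and the small subunit ND-MLRQ at 396 CPM per kb. At the low end were ND-ASHI at 32.1, ND-B17 at 39.9 and SdhD, a membrane anchor of complex II, at 41.7 CPM per kb. Per coding length, ATPsynC and ATPsynbeta kept ranks 1 and 2, and COX5A was at rank 6 instead of 3. By complex, the median was 65.4 CPM per kb for 33 complex I genes, 53.1 for 4 complex II genes and 123 for 6 complex III genes. It was 196 for 7 complex IV genes and 217 for 11 complex V genes. The spread within a complex was wide: complex I genes ran from 32.1 to 396 and complex V genes from 54.5 to 1019 CPM per kb. The 4 complex II genes lay within a narrow range, from 41.7 to 61.4 CPM per kb, and all were below every gene of complexes III and IV.

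Of the 62 main copies, 61 passed the filter on low counts, and their lowest level in any library was 18.5 CPM (ND-18 in nosGAL4 control 1). The exception was ND-B8, an accessory subunit of complex I, with 3 counts over all 8 libraries. The 61 lie on every large arm: 11 on 2L, 11 on 2R, 12 on 3L, 13 on 3R, 12 on X and 2 on chromosome 4 (ND-49 and ATPsynbeta). Their transcripts were short, with a median of 819 bases against 2054 bases for all genes tested, and 68.9% were under 1000 bases against 14.9% of all genes. An exon of 27 of the 61 overlaps an exon of a gene on the other strand and an exon of 7 overlaps one on the same strand. The kit kept strand, but how the counting used it is not given in the sources used here. Reads of such overlapping pairs may therefore be shared.

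With nosGAL4, 22 of the 61 main copies rose and 0 fell, which is 36.1% called against 59.2% of all genes. The paralog ATPsynepsilonL, which entered the test only through the libraries labelled knockdown, brings the count to 23 of 62 tested members. The share of all genes called higher was 33.5% and the share called lower 25.7%, so the main copies' share of rises is near the background. The counts depended on scaling, for members and for all genes. When libraries were scaled to their totals, 9 of the 62 tested members rose and 2 fell. Of all 8957 genes, 2449 rose and 3246 fell under that scaling. When scaled to ribosomal protein genes, 4 members rose and 2 fell, and of all genes 2140 rose and 3292 fell. Under TMM the ribosomal protein genes themselves had a median change of 0.62 with nosGAL4 and −0.84 with bamGAL4. Scaling to them therefore lowers all nosGAL4 changes and raises all bamGAL4 changes, here and below, and is not a neutral check of a call. The median log2 fold change of the 61 main copies was 0.54 (SD over genes 0.43), with 57 of 61 above 0, against a median of 0.11 over all genes. Changes were small by the standard of these libraries: the median absolute change was 0.55 for main copies and 1.15 for all genes. In 43 of the 61, both libraries labelled knockdown lay above both controls, and in 1 both lay below. Of all genes 79.8% were free of overlap, 42.1% with the libraries labelled knockdown above and 37.7% with them below. The number of members that rose was 8 without nosGAL4 control 1, 13 without control 2, 14 without the library labelled knockdown 1 and 31 without the library labelled knockdown 2.

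**Figure D1:**
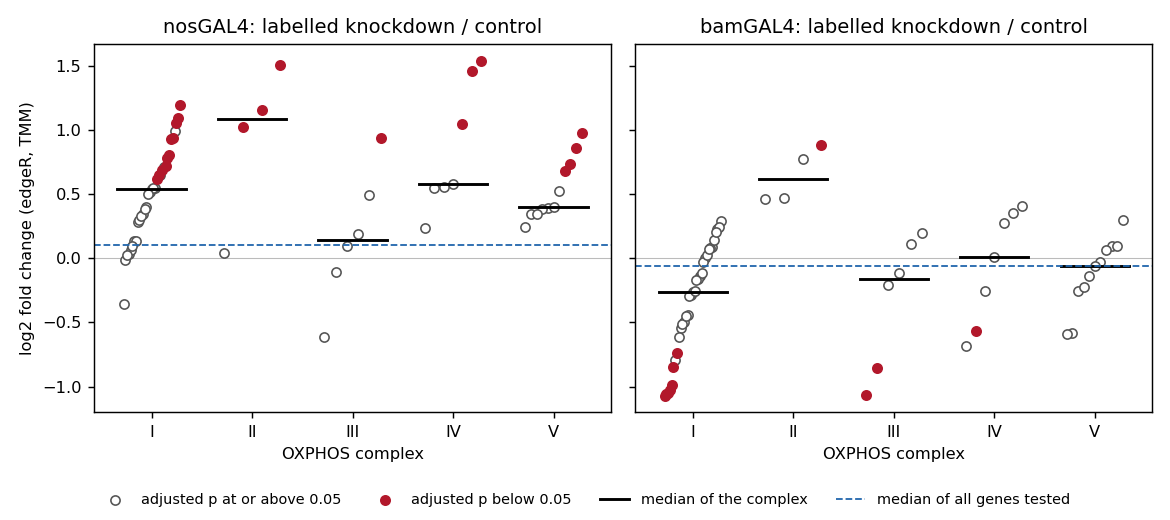
Each point is a tested main copy; the vertical axis is the log2 fold change of libraries labelled knockdown over controls (n = 2 libraries per group) for nosGAL4 (left) and bamGAL4 (right), by complex, with the complex's median as a bar and the median of all 8957 genes as a dashed line. Filled points passed an adjusted p of 0.05: with nosGAL4 all 22 of them lie above 0, and with bamGAL4 10 of 11 lie below it.

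Complex II was the complex with the highest median under nosGAL4, at 1.09 for its 4 genes, and it was also uneven. SdhA (FBgn0261439, 2R:19391863-19395971, minus strand, dm6) encodes the flavoprotein that oxidises succinate. It stood at 167 and 170 CPM in libraries labelled knockdown, against 162 and 167 CPM in controls. That difference was within the error, with a log2 fold change of 0.04 (SE 0.20, adjusted p = 0.893). SdhB (FBgn0014028, 2R:6807626-6809172, plus strand), the iron-sulfur subunit that carries electrons from SdhA to the membrane, stood at 126 and 132 CPM against 53.1 and 63.1 CPM. It rose by 1.15 on the log2 scale (SE 0.24, edgeR adjusted p = 0.00239). SdhC and SdhD encode the membrane anchors that bind coenzyme Q. SdhC (FBgn0037873, 3R:11208887-11209849, minus strand) was at 77.7 and 80.6 CPM in libraries labelled knockdown and at 37.03 and 40.9 CPM in controls, a rise of 1.02 (SE 0.23, edgeR adjusted p = 0.00339). SdhD (FBgn0039112, 3R:23759483-23760600, minus strand) was at 129 and 61.8 CPM against 32.1 and 35.1 CPM, a rise of 1.51 (SE 0.34, edgeR adjusted p = 0.00357). The 2 libraries labelled knockdown thus differed for SdhD by more than the controls did, though both lay above both controls. All 3 calls held when each of the 8 libraries was left out in turn. With scaling to ribosomal protein genes those of SdhB (0.59, adjusted p = 0.154) and SdhC (0.46, adjusted p = 0.247) did not. SdhA, SdhB and SdhD each overlap an exon on the other strand (CG11257, CG15237 and PTPMT1), and SdhC overlaps none.

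**Figure D2:**
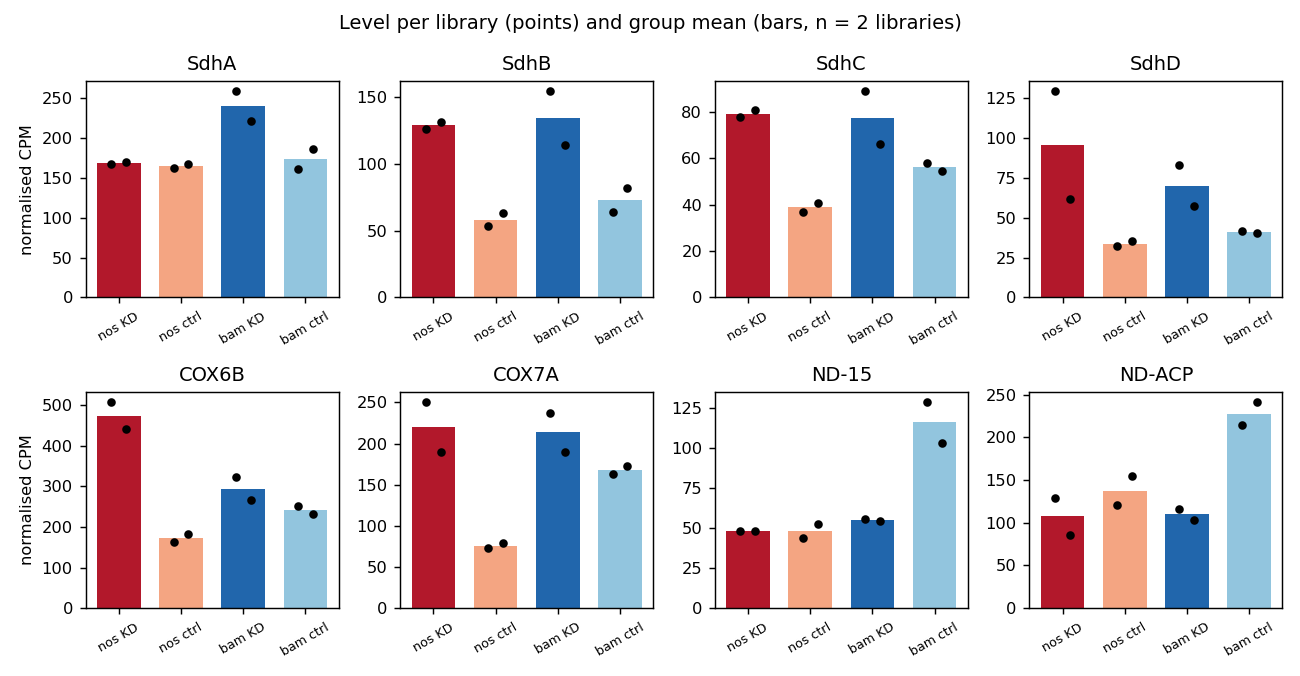
Normalised CPM (vertical axis, from 0) of 8 genes in each library (points), with the mean of the 2 libraries as a bar; KD stands for the libraries labelled knockdown and ctrl for the controls, with nosGAL4 left of bamGAL4. SdhB, SdhC, SdhD, COX6B and COX7A are higher in both nosGAL4 libraries labelled knockdown than in both controls, SdhA is nearly level with nosGAL4, and ND-15 and ND-ACP stand highest in the bamGAL4 controls.

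Cytochrome c oxidase, complex IV, held the 2 main copies with the smallest p-values. COX7A (FBgn0040529, 3R:8339944-8341043, minus strand), a small membrane subunit, was at 251 and 190 CPM in libraries labelled knockdown, against 72.6 and 79.1 CPM in controls. It rose by 1.54 (SE 0.23, edgeR adjusted p = 0.000279). COX6B (FBgn0031066, X:19740537-19744335, minus strand), on the intermembrane face of the enzyme, was at 508 and 441 CPM against 163 and 182 CPM, a rise of 1.46 (SE 0.21, edgeR adjusted p = 0.000245). These 2 genes and SdhD were the main copies whose call held under all 17 alternatives tried; COX6B overlaps CG18809 on its own strand and COX7A overlaps no other exon. COX4, a nuclear-encoded subunit (chosen after its values were seen), was the other call of the complex, at 276 and 225 CPM against 105 and 138 CPM. Its rise was 1.04 (SE 0.24, edgeR adjusted p = 0.00445), without nosGAL4 control 1 it was 0.84 (adjusted p = 0.0607), and with ribosomal protein scaling 0.45 (adjusted p = 0.240). COX7C and COX8, both small subunits, were the lowest of the 7, at 0.55 (adjusted p = 0.0574) and 0.23 (adjusted p = 0.548). All 7 were above 0, with a median of 0.58.

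Complex I, the NADH dehydrogenase, had 11 of 33 genes called higher and a median of 0.54. The 7 core subunits, which carry the flavin and iron-sulfur centres, had 3 calls and a median of 0.52, and the 26 accessory subunits had 8 calls and a median of 0.54. The core subunit ND-20 stood at 133 and 111 CPM in libraries labelled knockdown and at 57.7 and 69.5 CPM in controls. It rose by 0.94 (SE 0.23, edgeR adjusted p = 0.00613), or by 0.79 without nosGAL4 control 1 (adjusted p = 0.0725) and by 0.35 with ribosomal protein scaling (adjusted p = 0.360). ND-30 was at 97.7 and 53.2 CPM against 47.9 and 38.6 CPM, and its rise of 0.80 (edgeR adjusted p = 0.0466) held in only 1 of the 8 fits that each left out a library, down to 0.29 without the library labelled knockdown 1 (adjusted p = 0.392). ND-49, the core subunit with the highest level per kilobase in controls, rose by 0.62 (edgeR adjusted p = 0.0257), a call held in 3 of those 8 fits and lost without nosGAL4 control 1 at 0.48 (adjusted p = 0.195). The 2 lowest core subunits were ND-23 at 0.13 (adjusted p = 0.692) and ND-24 at 0.28 (adjusted p = 0.301).

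Among the accessory subunits, which surround the core and are needed for its assembly and stability, the highest were ND-B18 and ND-SGDH. ND-B18 stood at 98.1 and 67.6 CPM in libraries labelled knockdown, against 25.0 and 47.2 CPM in controls. Its rise was 1.197 (SE 0.32, edgeR adjusted p = 0.00947), or 0.79 without nosGAL4 control 1 (adjusted p = 0.0931) and 0.60 with ribosomal protein scaling (adjusted p = 0.139). ND-SGDH stood at 147 and 93.0 CPM against 60.8 and 51.7 CPM, a rise of 1.09 (SE 0.29, edgeR adjusted p = 0.00824), or 0.97 without nosGAL4 control 2 (adjusted p = 0.0733) and 0.45 with ribosomal protein scaling (adjusted p = 0.261). The other 6 accessory genes that rose did so by 0.65 to 1.05. At the low end were ND-ACP, the mitochondrial acyl carrier protein, at −0.35 (adjusted p = 0.246), and ND-15 at −0.01 (adjusted p = 0.976). ND-MLRQ, the accessory gene with the highest level, was at 0.55 (adjusted p = 0.283).

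Complexes III and V had the lowest medians, 0.14 and 0.40. In complex III, 1 of 6 genes was called: UQCR-Q, a small subunit of the cytochrome bc1 complex, stood at 140 and 110 CPM in libraries labelled knockdown and at 68.6 and 62.2 CPM in controls. It rose by 0.93 (SE 0.25, edgeR adjusted p = 0.00811), or by 0.86 without nosGAL4 control 2 (adjusted p = 0.0713). Scaled to library totals it was at 0.52 (adjusted p = 0.109) and scaled to ribosomal protein genes at 0.32 (adjusted p = 0.411). The core protein UQCR-C2 was at 0.50 (adjusted p = 0.119) and UQCR-14, the gene of the complex with the highest level per kilobase, at 0.19 (adjusted p = 0.484). UQCR-11 had the lowest value of all main copies, −0.62 (adjusted p = 0.130), with 92.8 and 71.9 CPM against 96.1 and 156 CPM, and UQCR-6.4 was at −0.11 (adjusted p = 0.771). In complex V, 4 of 11 genes rose and all 11 lay above 0. ATPsynE, a small membrane subunit, rose by 0.97 (SE 0.27, edgeR adjusted p = 0.0104), and ATPsynD, of the peripheral stalk, by 0.86 (SE 0.25, edgeR adjusted p = 0.0127). Both of those calls were lost without the library labelled knockdown 1, at 0.62 (adjusted p = 0.0677) for ATPsynE and 0.56 (adjusted p = 0.0812) for ATPsynD, and without either nosGAL4 control, at adjusted p from 0.0616 to 0.0891. Scaled to library totals, ATPsynE was at 0.56 (adjusted p = 0.0893) and ATPsynD at 0.44 (adjusted p = 0.149), and scaled to ribosomal protein genes at 0.34 (adjusted p = 0.380) and 0.23 (adjusted p = 0.545). ATPsynCF6, of the peripheral stalk, and ATPsyngamma, of the central stalk (both chosen after their values were seen), rose by 0.68 and 0.73 (adjusted p = 0.0258 and 0.0257), each call held in 5 of the 8 fits that left out a library. The lowest were ATPsynB, of the peripheral stalk, at 0.24 (adjusted p = 0.378) and ATPsynC at 0.35 (adjusted p = 0.237). The level of ATPsynC was 2225 and 1679 CPM in libraries labelled knockdown and 1442 and 1631 CPM in controls.

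With bamGAL4 under TMM, most OXPHOS genes lay close to 0 and the calls ran mainly downward. Among the 61 main copies, 1 rose and 10 fell in libraries labelled knockdown, which is 18.0% called against 68.1% of all genes (35.0% higher and 33.1% lower). ATPsynepsilonL brings the rises to 2 of 62 tested members. The median of the 61 main copies was −0.14, with values from −1.07 to 0.88, against −0.06 over all genes. The median absolute change was 0.28 for main copies and 1.42 for all genes. In 9 of the 61 both libraries labelled knockdown lay above both controls and in 23 both lay below. Of all genes 87.2% were free of overlap, 43.4% above and 43.8% below. The number called lower was 2 without the bamGAL4 library labelled knockdown 2 and 6 without the library labelled knockdown 1, and it was 17 without either nosGAL4 library labelled knockdown. It was 0 with scaling to ribosomal protein genes and 2 with a correction for transcript length, while the number called higher came to 26 and 16. Of all genes, 1180 were lower and 4041 higher with ribosomal protein scaling, and 3212 lower and 2726 higher with the length correction. With RLE factors the median of the main copies was 0.08, against 0.16 over all genes. The lower calls of COX5A, ND-B14.5A and UQCR-11 were lost with RLE factors and with DESeq2. Under both of these, more members were called higher than under TMM.

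Of the 10 falls, 7 were accessory subunits of complex I. They are 26.9% of the 26 tested, where 33.1% of all genes were called lower, so their share is not above the background. The accessory median was −0.37, and 0 of the 7 core subunits were called, with a median of 0.03. ND-15 (FBgn0031228, 2L:114726-156030, plus strand) stood at 55.7 and 54.7 CPM in libraries labelled knockdown, against 129 and 103 CPM in controls. It fell by 1.07 on the log2 scale (SE 0.22, edgeR adjusted p = 0.00172), a call kept in 16 of 17 alternatives and lost with ribosomal protein scaling (−0.22, adjusted p = 0.596). ND-ACP was at 117 and 103 CPM against 214 and 241 CPM, and fell by 1.05 (SE 0.25, edgeR adjusted p = 0.00417). Its call was lost with ribosomal protein scaling (−0.21, adjusted p = 0.590) and with the length correction (−0.53, adjusted p = 0.0524). ND-15 and ND-ACP were the 2 lower calls, of 10, that held with every library left out in turn. ND-PDSW, ND-AGGG, ND-MNLL, ND-B15 and ND-B14.5A (chosen after their values were seen) fell by 0.74 to 1.06.

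In the other complexes the calls with bamGAL4 were few. SdhB was the 1 main copy that rose, at 154 and 114 CPM in libraries labelled knockdown and 63.7 and 82.3 CPM in controls (0.88, SE 0.24, edgeR adjusted p = 0.00845; 0.64 and adjusted p = 0.1104 without the library labelled knockdown 1). SdhD was at 0.77 (adjusted p = 0.0622), SdhA at 0.47 (adjusted p = 0.0642) and SdhC at 0.46 (adjusted p = 0.0918). Each of the 4 complex II genes had both libraries labelled knockdown above both controls, and their median was 0.62, where the other complexes had medians from −0.26 to 0.01. In complex III, UQCR-6.4 fell by 1.06 (SE 0.30, edgeR adjusted p = 0.00902), or by 0.92 without the library labelled knockdown 2 (adjusted p = 0.0841). UQCR-11 fell by 0.86 (edgeR adjusted p = 0.0399), with 72.3 and 72.3 CPM against 170 and 92.2 CPM. That call rested on bamGAL4 control 1, the higher of the pair, without which the change was −0.36 (adjusted p = 0.342), and was also lost without either library labelled knockdown. In complex IV, COX5A was at 333 and 265 CPM against 385 and 501 CPM and fell by 0.57 (edgeR adjusted p = 0.0493), a call kept in 4 of 17 alternatives and lost without bamGAL4 control 2 (−0.37, adjusted p = 0.203). COX6B and COX7A, which rose most with nosGAL4, were at 0.28 (adjusted p = 0.260) and 0.35 (adjusted p = 0.188). In complex V 0 of 11 genes were called by edgeR, 1 had an unadjusted p below 0.05, and the median was −0.06.

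The effects of the 2 drivers were then subtracted gene by gene, nosGAL4 minus bamGAL4, and tested as an interaction. By edgeR 0 of 62 members passed, against 2.68% of all genes called (1.52% higher and 1.16% lower). At an unadjusted p below 0.05 there were 27 of the 62 members and 2213 of all 8957 genes. DESeq2 called 4 members higher, and 455 of all 8957 genes. With no filter on low counts edgeR called 2 members higher, and 289 of 11590 genes. Over the fits that each left out a library, the median difference of the main copies ran from 0.48 to 0.97. The nosGAL4 effect was the higher in 60 of 61 main copies (56.1% of all genes), and the median difference was 0.74 against 0.16 over all genes. SdhA was the exception, at −0.43 (SE 0.29, adjusted p = 0.378). The largest difference within each complex was ND-B18 in complex I (1.45, SE 0.46, adjusted p = 0.0966), SdhD in complex II (0.73, SE 0.47, adjusted p = 0.358) and UQCR-6.4 in complex III (0.96, SE 0.41, adjusted p = 0.190). In complex IV it was COX5B (1.24, SE 0.42, adjusted p = 0.113) and in complex V ATPsynG (0.97, SE 0.35, adjusted p = 0.135). COX6B had the smallest adjusted p of all, 0.0600, at 1.18 (SE 0.30). By complex the median difference was 0.91 for I, 0.42 for II, 0.34 for III, 1.15 for IV and 0.67 for V. Beside these, 27 of 86 cytoplasmic ribosomal protein genes had a higher nosGAL4 effect by the same test and 0 a lower one, with a median of 1.47. Of 61 main copies, 33 lay above 0 with nosGAL4 and below 0 with bamGAL4, 24 lay above 0 with both and 4 below 0 with both. No gene was called in opposite directions. Across the 61 genes, whose estimates come from 1 model and 1 normalisation but from separate libraries for each driver, the effects of the 2 drivers correlated at r = 0.674, and at 0.824 across all genes.

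Which groups stood apart was looked at after these values were seen, with 2 further contrasts of the same model that share the libraries above. Between the libraries labelled knockdown, nosGAL4 over bamGAL4, 0 of 62 members were called by edgeR, and the median was −0.03. Of all genes 4.14% were called (2.02% higher and 2.12% lower). At an unadjusted p below 0.05 there were 8 of the 62 members and 2050 of all 8957 genes. DESeq2 called 4 members higher and 2 lower, and of all genes 463 higher and 516 lower. Over the fits that each left out a library, this median ran from −0.18 to 0.13 for the main copies. Between the controls, nosGAL4 over bamGAL4, 12 of 62 members were lower and 0 higher, against 6.8% of all genes called (3.11% higher and 3.68% lower), and all 61 main copies lay below 0 with a median of −0.71. COX7A was at 72.6 and 79.1 CPM in nosGAL4 controls and 163 and 172 CPM in bamGAL4 controls (−1.14, SE 0.23, edgeR adjusted p = 0.0264). ND-15 was at 44.0 and 52.6 CPM in nosGAL4 controls and 129 and 103 CPM in bamGAL4 controls (−1.26, edgeR adjusted p = 0.0184). Between the libraries labelled knockdown these genes stood at 0.04 for COX7A (adjusted p = 0.933) and −0.20 for ND-15 (adjusted p = 0.635). The count of 12 depended on which library was left out, and so did the share of all genes called. Over those fits the median of the main copies ran from −0.84 to −0.61. The controls differ in driver and in the listed balancers, and these cannot be told apart.

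Other quantities moved with the difference between controls, and their part in it was not tested. Of 86 cytoplasmic ribosomal protein genes, whose transcripts are also short, 38 were lower in nosGAL4 than in bamGAL4 controls and 0 higher, with a median of −0.97. Their summed level was 64496 and 73978 CPM in nosGAL4 controls and 138774 and 129818 CPM in bamGAL4 controls. With the correction for transcript length, 0 of 62 OXPHOS members were called between the controls and the median was −0.21. Of all genes 0.875% were called with it, against 6.8% without it, so the 0 is near the background. The same correction gave the nosGAL4 minus bamGAL4 difference a median of 0.11 in place of 0.74. Among genes under 1000 bases, the median change with bamGAL4 was −0.26 for the 42 OXPHOS main copies and −0.82 for all such genes, and with nosGAL4 it was 0.55 and 0.13. For the 19 main copies of 1000 bases or more it was 0.08 with bamGAL4, against 0.09 for all such genes, and 0.40 with nosGAL4, against 0.10.

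The scaling of the libraries set the sign of several medians, so the members were also read relative to all genes. With nosGAL4 the all-gene median was 0.11 under TMM, −0.28 when scaled to library totals and −0.45 when scaled to ribosomal protein genes. The median of the main copies stood above it by 0.43 under TMM and RLE factors alike, 0.41 when scaled to library totals, 0.38 when scaled to ribosomal protein genes and 0.47 under the length correction. With bamGAL4 the main copies stood at −0.08 relative to all genes under TMM, RLE factors and library totals each. The value was −0.10 when scaled to ribosomal protein genes and 0.50 under the length correction. Complex II stood above the all-gene median in each of these 5 settings, by 0.96 to 1.15 with nosGAL4 and by 0.66 to 1.39 with bamGAL4.

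**Figure D3:**
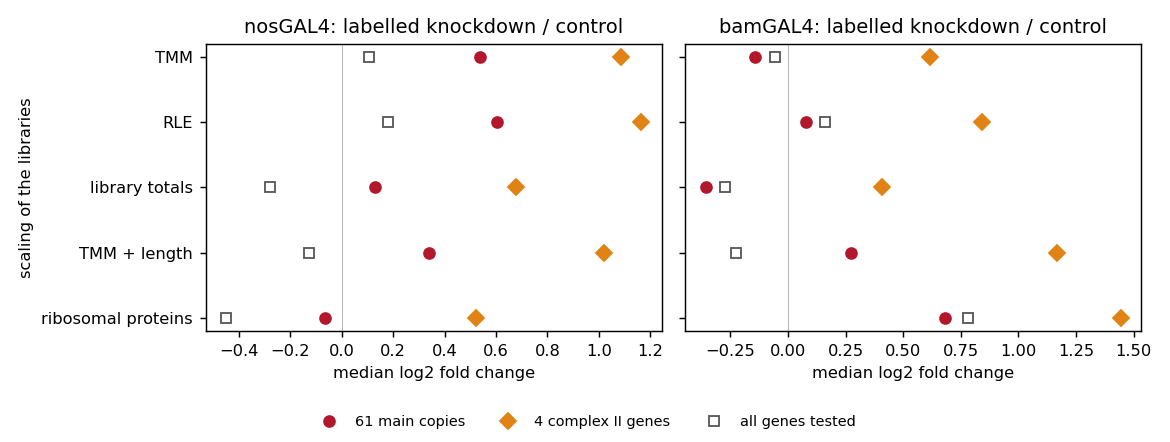
Median log2 fold change of libraries labelled knockdown over controls (horizontal axis) for 61 OXPHOS main copies, the 4 complex II genes and all genes tested, under 5 ways of scaling the libraries (rows), with nosGAL4 left and bamGAL4 right. The main copies lie to the right of all genes in every row with nosGAL4, and with bamGAL4 only in the row with the length correction, while the complex II genes lie to the right in all rows.

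Ratios between members need no scaling between libraries, and the pairs below were chosen after the values were seen. Such ratios do not remove shifts that go with transcript length, and the paired transcripts differ in length. ND-ACP has 740 bases against 2571 for ND-75, and SdhB and SdhC have 1219 and 906 against 2750 for SdhA. The part of length in these ratios was not tested. SdhB had 0.755 and 0.776 counts per SdhA count in nosGAL4 libraries labelled knockdown, against 0.328 and 0.379 in controls. With bamGAL4 the ratio was 0.598 and 0.518 in libraries labelled knockdown and 0.396 and 0.442 in controls. Both libraries labelled knockdown lay above both controls with each driver, and 2 libraries against 2 cannot go below an exact p of 0.333. The ratio of SdhC to SdhA was 0.464 and 0.475 with nosGAL4 in libraries labelled knockdown, against 0.229 and 0.245 in controls. With bamGAL4 it overlapped between groups, at 0.344 and 0.2995 against 0.360 and 0.293. ND-ACP had 0.718 and 0.525 counts per count of the core subunit ND-75 in nosGAL4 libraries labelled knockdown, against 1.21 and 1.10 in controls, and 0.507 and 0.570 against 1.52 and 1.17 with bamGAL4. Both libraries labelled knockdown lay below both controls with each driver. As shares of all OXPHOS counts, complex IV made up 14.8% and 15.3% in nosGAL4 libraries labelled knockdown and 10.7% and 11.3% in controls, but 12.5% and 12.2% against 12.3% and 12.7% with bamGAL4. Complex II made up 4.71% and 4.51% in bamGAL4 libraries labelled knockdown and 2.69% and 3.15% in controls. With nosGAL4 its share was 4.11% and 4.68%, against 3.99% and 3.73%. Complex III made up 6.17% and 6.79% in nosGAL4 libraries labelled knockdown, against 8.11% and 8.22% in controls, and was 7.91% and 7.37% against 7.98% and 8.88% with bamGAL4. Complex V held 46.6% to 51.7% of the counts, the largest share of the 5 complexes in every library.

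The paralogs ending in L were nearly silent. Of the 18, 9 had no count in any of the 8 libraries, 7 had 1 to 10 counts in total, COX4L had 18, and ATPsynepsilonL was the 1 that passed the filter. A count of 0 in a library allows a level of up to 0.238 to 0.405 CPM, by counting error only. In all, the L copies had 108 counts in the 4 libraries labelled knockdown and 3 in the 4 controls, and 7 of the 18 had a count in any library labelled knockdown and 3 in any control. Most of these came from ATPsynepsilonL, without which the sums were 33 and 3. Of all genes, too, more had a count in libraries labelled knockdown than in controls. Genes with a count numbered 9335 and 9486 in nosGAL4 libraries labelled knockdown and 8398 and 8904 in controls. With bamGAL4 they numbered 10313 and 10447 against 9098 and 9631. The list of 8 testis markers, which include Mst87F, dj, can and aly, had no gene that passed the filter, and its sum was at most 1.62 CPM in any library.

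ATPsynepsilonL (3R:10121773-10122320, plus strand), a copy of the ATP synthase central stalk subunit encoded by sun, had 25 and 25 counts in nosGAL4 libraries labelled knockdown and 0 and 0 in their controls. With bamGAL4 it had 10 and 15 counts in libraries labelled knockdown and 0 and 0 in controls. Set against a floor of 3 counts over the control group, its level was at least 24.5-fold higher with nosGAL4 and at least 7.91-fold higher with bamGAL4. It passed the filter only through the libraries labelled knockdown, so its calls with both drivers (edgeR adjusted p = 0.00312 with nosGAL4 and 0.00949 with bamGAL4) add nothing to the counts of main copies. The bamGAL4 call was lost without the library labelled knockdown 2 (adjusted p = 0.0696) and without control 2 (adjusted p = 0.0626). Per kilobase of transcript, ATPsynepsilonL reached 1.39% and 2.08% of the level of sun in the nosGAL4 libraries labelled knockdown and 0.557% and 1.01% in those of bamGAL4. The main copy sun itself was at 224 and 147 CPM in nosGAL4 libraries labelled knockdown and 118 and 188 CPM in controls, a difference within the error (0.28, adjusted p = 0.525). With bamGAL4 it was at 146 and 135 CPM against 322 and 163 CPM (−0.78, adjusted p = 0.0748). COX4L, the next L copy by counts (chosen after its values were seen), had 0 and 7 counts in nosGAL4 libraries labelled knockdown, 0 and 0 in their controls, 7 and 3 in bamGAL4 libraries labelled knockdown and 0 and 1 in their controls. Its counts came from 4 of the 8 libraries, 3 of them labelled knockdown. By symbol, SdhAL, ND-24L, ND-49L and ND-20L were among the 9 with no count, although SdhA, ND-24, ND-49 and ND-20 were each at 47.0 CPM or more in every library. An L copy lay on another chromosome arm than its main copy in 14 of 18 cases.

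Of 7 OXPHOS subunits that carry other names, 2 rose and 0 fell with nosGAL4, and 1 rose and 0 fell with bamGAL4. They were levy and cype (complex IV), RFeSP, Cyt-c1 and ox (complex III), and blw and sun (complex V), and their median was 0.41 with nosGAL4 and −0.18 with bamGAL4. With nosGAL4, levy rose by 0.73 (edgeR adjusted p = 0.0340) and cype by 1.03 (adjusted p = 0.0320), and without the library labelled knockdown 1 they were at 0.48 (adjusted p = 0.163) and 0.26 (adjusted p = 0.418). With bamGAL4 blw, the ATP synthase alpha subunit (chosen after its values were seen), rose by 0.64 (adjusted p = 0.0318). Cyt-c-p, the cytochrome c of most tissues, was at 0.41 (adjusted p = 0.0970) with nosGAL4 and 0.25 (adjusted p = 0.284) with bamGAL4. None of the 11 subunits encoded in mitochondrial DNA that were tested was called by edgeR, 0 at an unadjusted p below 0.05, with medians of 0.98 and 0.19. Their replicates differed widely: they held 5.66% and 0.716% of the counts in the 2 bamGAL4 controls, and 2.76% to 4.13% in the other 6 libraries. For mt:CoIII the level was 11484 and 9330 CPM in nosGAL4 libraries labelled knockdown and 4953 and 5563 CPM in controls (0.98, adjusted p = 0.285). For mt:Cyt-b the change with nosGAL4 was 1.34 (adjusted p = 0.265). These tests depended on the bamGAL4 controls, which share the model's estimate of spread. Without bamGAL4 control 1 both genes passed with bamGAL4, mt:Cyt-b at 2.76 (edgeR adjusted p = 0.000533) and mt:CoIII at 2.33 (adjusted p = 0.000468). Without control 2 they were at −0.54 (adjusted p = 0.167) and −0.41 (adjusted p = 0.208). With nosGAL4 both passed when either bamGAL4 control was left out, and the lowest adjusted p over all alternatives was 0.00336 for mt:Cyt-b and 0.00566 for mt:CoIII.

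Among genes that build the complexes and their carriers, more fell than rose with both drivers, where 25.7% of all genes were lower with nosGAL4 and 33.1% with bamGAL4. Here and in the next paragraph, the 2 genes named from each list are those with the smallest edgeR p with nosGAL4. Of 9 assembly factors, 5 fell and 1 rose with nosGAL4 (median −0.93), and 6 fell and 0 rose with bamGAL4 (median −1.07). These 9 are the ones whose listed names could be matched to a counted gene. Many other listed names, among them Sdhaf1, Bcs1, Atpaf1 and Atpaf2, were not matched, so the values do not cover assembly factors as a class. Surf1, an assembly factor of complex IV, was at 10.3 and 5.57 CPM in nosGAL4 libraries labelled knockdown against 25.0 and 32.6 CPM in controls (−1.86, SE 0.35, edgeR adjusted p = 0.00110), and fell by 2.28 with bamGAL4. Sdhaf3, an assembly factor of complex II, was at 1.76 and 0.663 CPM against 7.002 and 11.1 CPM (−2.89, SE 0.54, edgeR adjusted p = 0.00110), while 3 of the 4 complex II subunits rose; it fell by 2.91 with bamGAL4. Of 10 genes for coenzyme Q synthesis, 3 fell and 1 rose with nosGAL4, a share of falls near the background, and 6 fell and 1 rose with bamGAL4. Coq2 and Pdss2 fell with both drivers, by 1.66 and 1.02 with nosGAL4 and by 1.02 and 1.34 with bamGAL4. The bamGAL4 call of Coq2 was lost with DESeq2 (adjusted p = 0.0603), without either bamGAL4 library labelled knockdown (adjusted p = 0.0738 and 0.0833) and with ribosomal protein scaling (−0.18, adjusted p = 0.704). For Pdss2 the nosGAL4 call was lost without nosGAL4 control 2 (−0.89, adjusted p = 0.0712) and the bamGAL4 call with ribosomal protein scaling (−0.51, adjusted p = 0.250). Of 25 genes for mitochondrial import, biogenesis and cristae, 11 fell and 0 rose with nosGAL4, and 17 fell and 2 rose with bamGAL4. Among them srl, the fly PGC-1 homolog that promotes expression of mitochondrial genes, was at 63.9 and 55.6 CPM in nosGAL4 libraries labelled knockdown against 439 and 426 CPM in controls (−2.86, SE 0.26, edgeR adjusted p = 7.79e-06), and fell by 1.99 with bamGAL4. Ets97D, the fly homolog of a subunit of the nuclear respiratory factor GABP, fell by 1.67 and 1.83 with nosGAL4 and bamGAL4.

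Among citrate cycle genes, which supply the electrons, more rose than fell with both drivers: 7 of 15 rose and 0 fell with nosGAL4 (median 0.47), and 8 rose and 1 fell with bamGAL4 (median 0.70). Of all genes, 33.5% were higher and 25.7% lower with nosGAL4, and 35.0% higher and 33.1% lower with bamGAL4. Nc73EF, a subunit of the oxoglutarate dehydrogenase complex, was at 212 and 280 CPM in nosGAL4 libraries labelled knockdown and 81.2 and 94.9 CPM in controls (1.48, SE 0.24, edgeR adjusted p = 0.000520), and it rose by 2.10 with bamGAL4. Idh3a, the catalytic subunit of isocitrate dehydrogenase, rose by 1.21 (edgeR adjusted p = 0.000696) and by 1.04 (adjusted p = 0.00132). The shares called, in either direction, ran from 28.6% to 66.7% over the lists of other subunits, assembly, coenzyme Q, citrate cycle and import with nosGAL4, against 59.2% of all genes, and from 14.3% to 76.0% with bamGAL4, against 68.1%. Of 86 cytoplasmic ribosomal protein genes, 39 rose and 1 fell with nosGAL4 (median 0.62), and 3 rose and 54 fell with bamGAL4 (median −0.84). The markers of muscle, haemocytes, fat body and neurons, and those of the germline, differed between libraries labelled knockdown and controls by the amounts given at the start, and their part in the values of the OXPHOS and related genes was not tested.

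**Figure D4:**
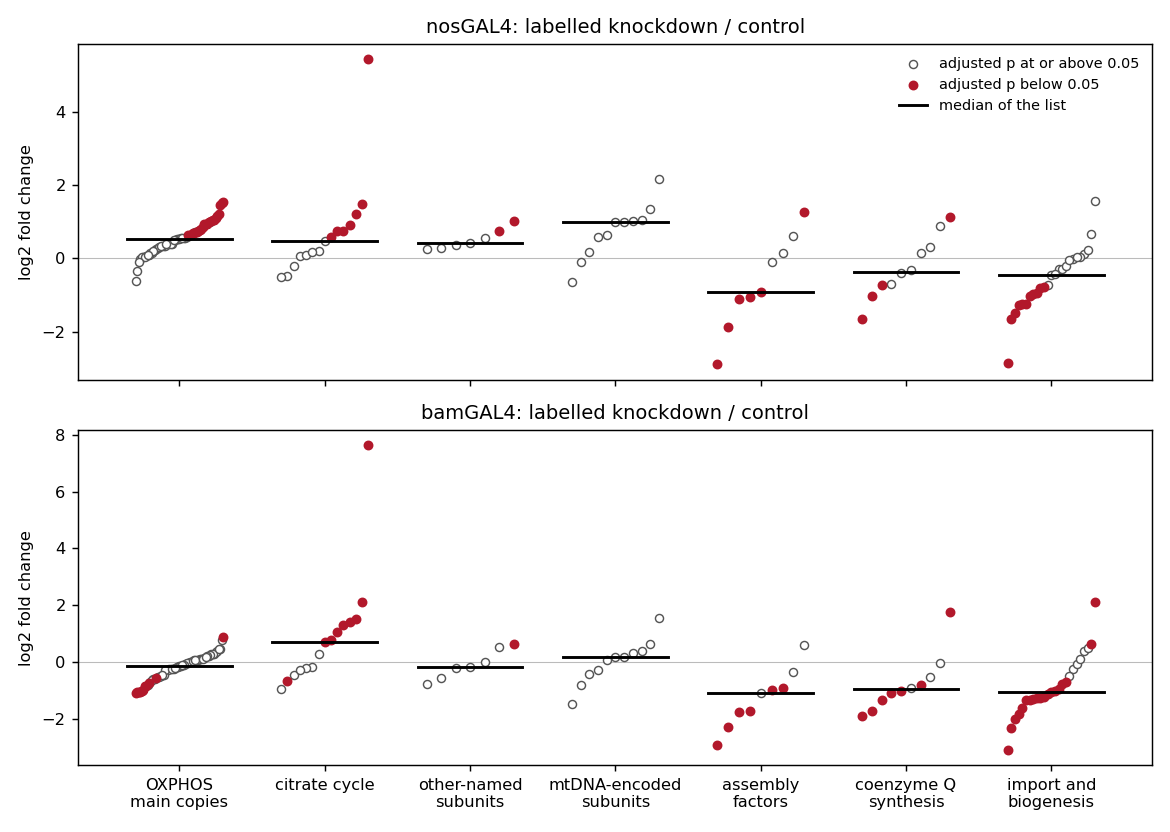
Each point is a tested gene; the vertical axis is the log2 fold change of libraries labelled knockdown over controls with nosGAL4 (top) and bamGAL4 (bottom), for the OXPHOS main copies and 6 related lists, with the list's median as a bar and genes with an adjusted p below 0.05 filled. The assembly, coenzyme Q and import lists have medians below 0 with both drivers and the citrate cycle list has medians above 0, while the subunit genes lie within a narrower band.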

How the data were processed

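The 8 libraries were compared as 4 groups of 2, named from GEO's labels. The authors deposited estimated counts for each gene, unscaled. Tools named without a role in the submitters' processing notes are Salmon 1.2.1, STAR 2.7.5b, Trim Galore 0.6.6 and FastQC 0.11.8, with the build dm6. Per the labels' protocols the kit was directional. Estimated counts were rounded. Genes were kept with edgeR 4.0.16 (filterByExpr, minimum count 10, minimum total 15), and 1 quasi-likelihood model with TMM factors was fitted robustly to all 8 libraries (4 residual degrees of freedom; R 4.3.3, limma 3.58.1). P-values were adjusted over all 8957 genes. Log2 fold changes are libraries labelled knockdown over controls, with a prior count of 0.125. CPM carry TMM factors, and CPM per kb divides by the longest transcript in annotation BDGP6.54 (the dm6 assembly), which held 14048 of 14094 identifiers. Library totals bound the precision, and intervals and floors cover counting error only.

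The members and lists were chosen with earlier results of these data known, and 3 genes (Scox, l(2)37Cc, ttm50) joined the lists under current symbols. Named genes are all 4 complex II genes, L copies reaching 1 CPM with their main copy, and per complex the 2 highest and 2 lowest with nosGAL4, the highest level and the largest difference between drivers. From each other list, the 2 genes with the smallest edgeR p with nosGAL4 were named, so they do not stand for their list. Replicate numbers did not pair libraries: deviations of same-numbered libraries correlated at −0.047 to 0.03. Alternatives were RLE factors, library totals, ribosomal protein scaling, a correction for transcript length, DESeq2 1.42.0, no or a stricter filter (5 CPM), the driver's own libraries, the replicate number as a block and leaving out each library. The model was tested on simulated counts. No table held per-library columns beyond those used.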

Additional observations from a re-analysis of the deposited data

Results flagged for a closer look

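Among the genes named from all lists, marker and ribosomal protein lists included, 2 had effects that differed between the drivers by the test of the difference itself, and neither is an OXPHOS gene. The ribosomal protein gene RpL22 stood at 1362 and 1287 CPM in nosGAL4 libraries labelled knockdown, against 383 and 389 CPM in controls, and at 1027 and 855 CPM against 783 and 726 CPM with bamGAL4; its nosGAL4 effect minus its bamGAL4 effect was 1.46 (edgeR adjusted p = 0.0374). That is close to the median of 1.47 over the 86 ribosomal protein genes tested, of which 27 passed, so it is not particular to RpL22. The germline gene otu stood at 19.1 and 12.9 CPM in nosGAL4 libraries labelled knockdown, against 429 and 434 CPM in controls, and at 1.86 and 3.68 CPM against 307 and 276 CPM with bamGAL4, a difference of 1.96 (edgeR adjusted p = 0.0452).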

How the results depend on the processing

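Counts and medians moved with library scaling, with the length correction and with single libraries, and the causes were not tested. Ribosomal protein scaling moves all changes down with nosGAL4 and up with bamGAL4, since its reference genes themselves shifted under TMM. Scaled to library totals, 9 members rose and 2 fell with nosGAL4, and 19 fell with bamGAL4. Of all 8957 genes, 2449 rose and 3246 fell with nosGAL4 under that scaling, and 3385 fell with bamGAL4. Scaled to ribosomal protein genes, 4 members rose and 2 fell with nosGAL4, and 26 rose and 0 fell with bamGAL4. For the difference between drivers 2 were lower, between the libraries labelled knockdown 1 was lower, and between the controls 1 was higher and 0 lower. Of all genes, 2140 rose and 3292 fell with nosGAL4, and 4041 rose and 1180 fell with bamGAL4. For the difference 3199 were lower, between the libraries labelled knockdown 373 were lower, and between the controls 2826 were higher and 97 lower. Under the length correction, 1 fell with nosGAL4, 16 rose and 2 fell with bamGAL4, 1 was higher and 1 lower between the libraries labelled knockdown, and 0 were lower between the controls. Of 8919 genes, 2986 fell with nosGAL4, and 2726 rose and 3212 fell with bamGAL4, under this correction. Between the libraries labelled knockdown 229 were higher and 219 lower, and between the controls 40 were lower. DESeq2 called 10 higher with bamGAL4, 4 higher for the difference, 4 higher and 2 lower between the libraries labelled knockdown, and 23 lower between the controls. Of all 8957 genes it called 3442 higher with bamGAL4 and 455 higher for the difference. It called 463 higher and 516 lower between the libraries labelled knockdown, and 545 lower between the controls. RLE factors gave 8 higher with bamGAL4, the stricter filter 4, and no filter 2 higher both for the difference and between the libraries labelled knockdown. With bamGAL4, RLE factors called 3436 of 8957 genes higher and the stricter filter 2834 of 8008. With no filter, 289 of 11590 genes were higher for the difference and 243 between the libraries labelled knockdown.

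The nosGAL4 medians for main copies and complexes I, II, III, IV and V were 0.13, 0.13, 0.68, −0.27, 0.17 and −0.011 when scaled to library totals. Scaled to ribosomal protein genes they were −0.065, −0.057, 0.52, −0.44, 0.0030 and −0.21. Under the length correction they were 0.34 for main copies, 0.29 for complex I and −0.056 for complex III. The bamGAL4 medians for main copies and complexes I, II and III were 0.081, −0.045, 0.84 and 0.063 with RLE factors, 0.080, −0.045, 0.84 and 0.063 with DESeq2, and −0.35, −0.47, 0.41 and −0.37 with library totals. Scaled to ribosomal protein genes they were 0.68, 0.55, 1.44 and 0.67, with 0.84 for complex IV and 0.77 for V, and under the length correction 0.27, 0.24, 1.17 and 0.205, with 0.57 for IV and 0.35 for V. The median difference between drivers was 0.54 with library totals, −0.69 with ribosomal protein scaling and 0.11 under the length correction. Between the libraries labelled knockdown the median was −0.50 with ribosomal protein scaling. Between the controls it was 0.24 with that scaling and −0.21 under the length correction.

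Leaving out each library gave 8 to 31 higher and 0 to 1 lower with nosGAL4, and 1 to 3 higher and 2 to 17 lower with bamGAL4. It gave 0 to 22 higher and 0 to 0 lower for the difference, 0 to 7 higher and 0 to 1 lower between the libraries labelled knockdown, and 0 to 0 higher and 0 to 31 lower between the controls. The nosGAL4 medians ran from 0.34 to 0.67 for main copies, 0.33 to 0.67 for complex I, 0.955 to 1.18 for II, 0.10 to 0.18 for III, 0.47 to 0.83 for IV and 0.18 to 0.66 for V. With bamGAL4 they ran from −0.32 to 0.01, −0.43 to −0.11, 0.41 to 0.83, −0.35 to −0.00089, −0.16 to 0.15 and −0.24 to 0.05. The medians ran from 0.48 to 0.97 for the difference, −0.18 to 0.13 between the libraries labelled knockdown and −0.84 to −0.61 between the controls. The share of all genes called also varied between these fits, so the counts of members have no fixed share beside them.

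Named genes whose sign changed, with the test passed in the setting reported or in the alternative, were the following; others changed sign without passing in either. ND-MLRQ with bamGAL4 was at 0.84 (edgeR adjusted p = 0.0236) without bamGAL4 control 1. Scaled to ribosomal protein genes, UQCR-11, COX5A and ATPsynC with bamGAL4 were at 0.0016, 0.26 and 0.81, and the differences between drivers of Cyt-c-p and Idh3a were −1.27 and −1.25. Replicate numbers are shared across groups but did not pair the libraries. With the replicate number as a block, 22 members rose and 0 fell with nosGAL4, 2 rose and 8 fell with bamGAL4, and 0 were called for the difference. With 2 libraries a group and 4 residual degrees of freedom, adjusted p-values rest on the spread shared across genes, and leaving out 1 library of a group assumes that the other varies like the rest.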
